A study of Homo sapiens with 8 samples.

Results

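Accessible chromatin was described around 10 microRNA genes, of which MIR302A, MIR367 and MIR371A belong to clusters known for human pluripotent stem cells and MIR1-1, MIR1-2, MIR133A1, MIR133A2, MIR208A, MIR208B and MIR499A are genes of heart and skeletal muscle. All peaks within 20 kb of the annotated hairpin of each gene were taken from the 8 peak lists of the series and merged over the lists, which gave 42 regions of 285853 in all. Neighbouring genes share windows, so the 42 regions fall into 6 loci. There were 8 regions at MIR302A and MIR367 on chromosome 4 and 9 at MIR371A on chromosome 19, or 17 at the stem cell genes. The 25 regions at the muscle genes comprised 7 at MIR1-1 and MIR133A2 and 6 at MIR499A on chromosome 20, 3 at MIR1-2 and MIR133A1 on chromosome 18, and 9 at MIR208A and MIR208B on chromosome 14. A region that lies in the windows of several genes was counted once.

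The data are ATAC-seq libraries of the established line RUES2, human embryonic stem cells that were directed to cardiomyocytes through mesoderm and cardiac progenitors. ATAC-seq cuts open chromatin with a transposase, and a peak is a stretch where the cuts exceed the local background. There were 2 libraries for each of 4 stages, hESC (day 0), MES (day 2, mesoderm), CP (day 5, cardiac progenitor) and CM (day 14, cardiomyocyte). All cells received the WNT agonist CHIR-99021, the hESC libraries included, because they were collected at day 0 after a day in it, just before the change to RPMI medium with BSA, ascorbic acid and more CHIR-99021. The CP and CM cells had in addition been given the WNT inhibitor Xav-939 from day 3, and the CM cells B27 supplement from day 7 on. The differentiated stages are whole cultures named by day, so that fewer cells with an open site and a weaker site in each cell cannot be told apart.

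MicroRNAs are short RNAs cut from hairpins in longer primary transcripts, and they repress mRNAs that match their seed, the bases 2 to 8. The miR-302 and miR-371 families share the core of their seeds, are abundant in human embryonic stem cells and act on cell cycle genes, and transcription of the miR-302 host gene is driven by OCT4 and SOX2. miR-1 and miR-133a are transcribed together in cardiac and skeletal muscle under SRF and MEF2. miR-208a, miR-208b and miR-499 lie in introns of the myosin heavy chain genes MYH6, MYH7 and MYH7B and are made with these hosts.

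The mature sequences of 1 arm of each gene follow, written 5′ to 3′ from RefSeq (GRCh38.p14), to show which genes make the same or a related microRNA. Capitals mark the seed. RefSeq held 15 mature arms with 14 seeds for the 10 genes, and all 10 hairpins matched the genome sequence used here.
hsa-miR-302a-3p: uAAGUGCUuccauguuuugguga
hsa-miR-371a-3p: aAGUGCCGccaucuuuugagugu
hsa-miR-367-3p: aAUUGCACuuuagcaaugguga
hsa-miR-208a-3p: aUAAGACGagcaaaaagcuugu
hsa-miR-208b-3p: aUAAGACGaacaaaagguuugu
hsa-miR-499a-5p: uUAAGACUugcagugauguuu
hsa-miR-1-3p: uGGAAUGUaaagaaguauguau
hsa-miR-133a-3p: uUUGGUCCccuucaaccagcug

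MIR1-1 and MIR1-2 give the same miR-1-3p, with 22 of 22 bases equal, and MIR133A1 and MIR133A2 give the same miR-133a on both arms. The 3p arms of miR-208a and miR-208b have the seed UAAGACG in common and agree at 19 of 22 positions. For miR-1-3p and miR-133a, the peaks thus separate loci whose mature products have the same sequence.

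None of the 130 peaks behind the 42 regions overlapped any of the 10 hairpins. The shortest distance from a hairpin to a region was 326 bp at MIR302A, 390 bp at MIR133A2, 636 bp at MIR367, 1185 bp at MIR133A1, 1782 bp at MIR1-2, 2213 bp at MIR371A, 3197 bp at MIR1-1, 3934 bp at MIR208A, 6068 bp at MIR499A and 7644 bp at MIR208B. The 3 hairpins that lie in myosin introns were the farthest from a region. Of the 42 regions, 11 held an annotated transcription start site in GENCODE 44 and 15 were intergenic. In what follows, fold is the ratio of the pileup at a peak to its local background as the peak caller listed it, and q is given as −log10. A region without a peak in a library did not pass the caller's q of 0.01 there, which does not show that it was closed.

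**Figure D1:**
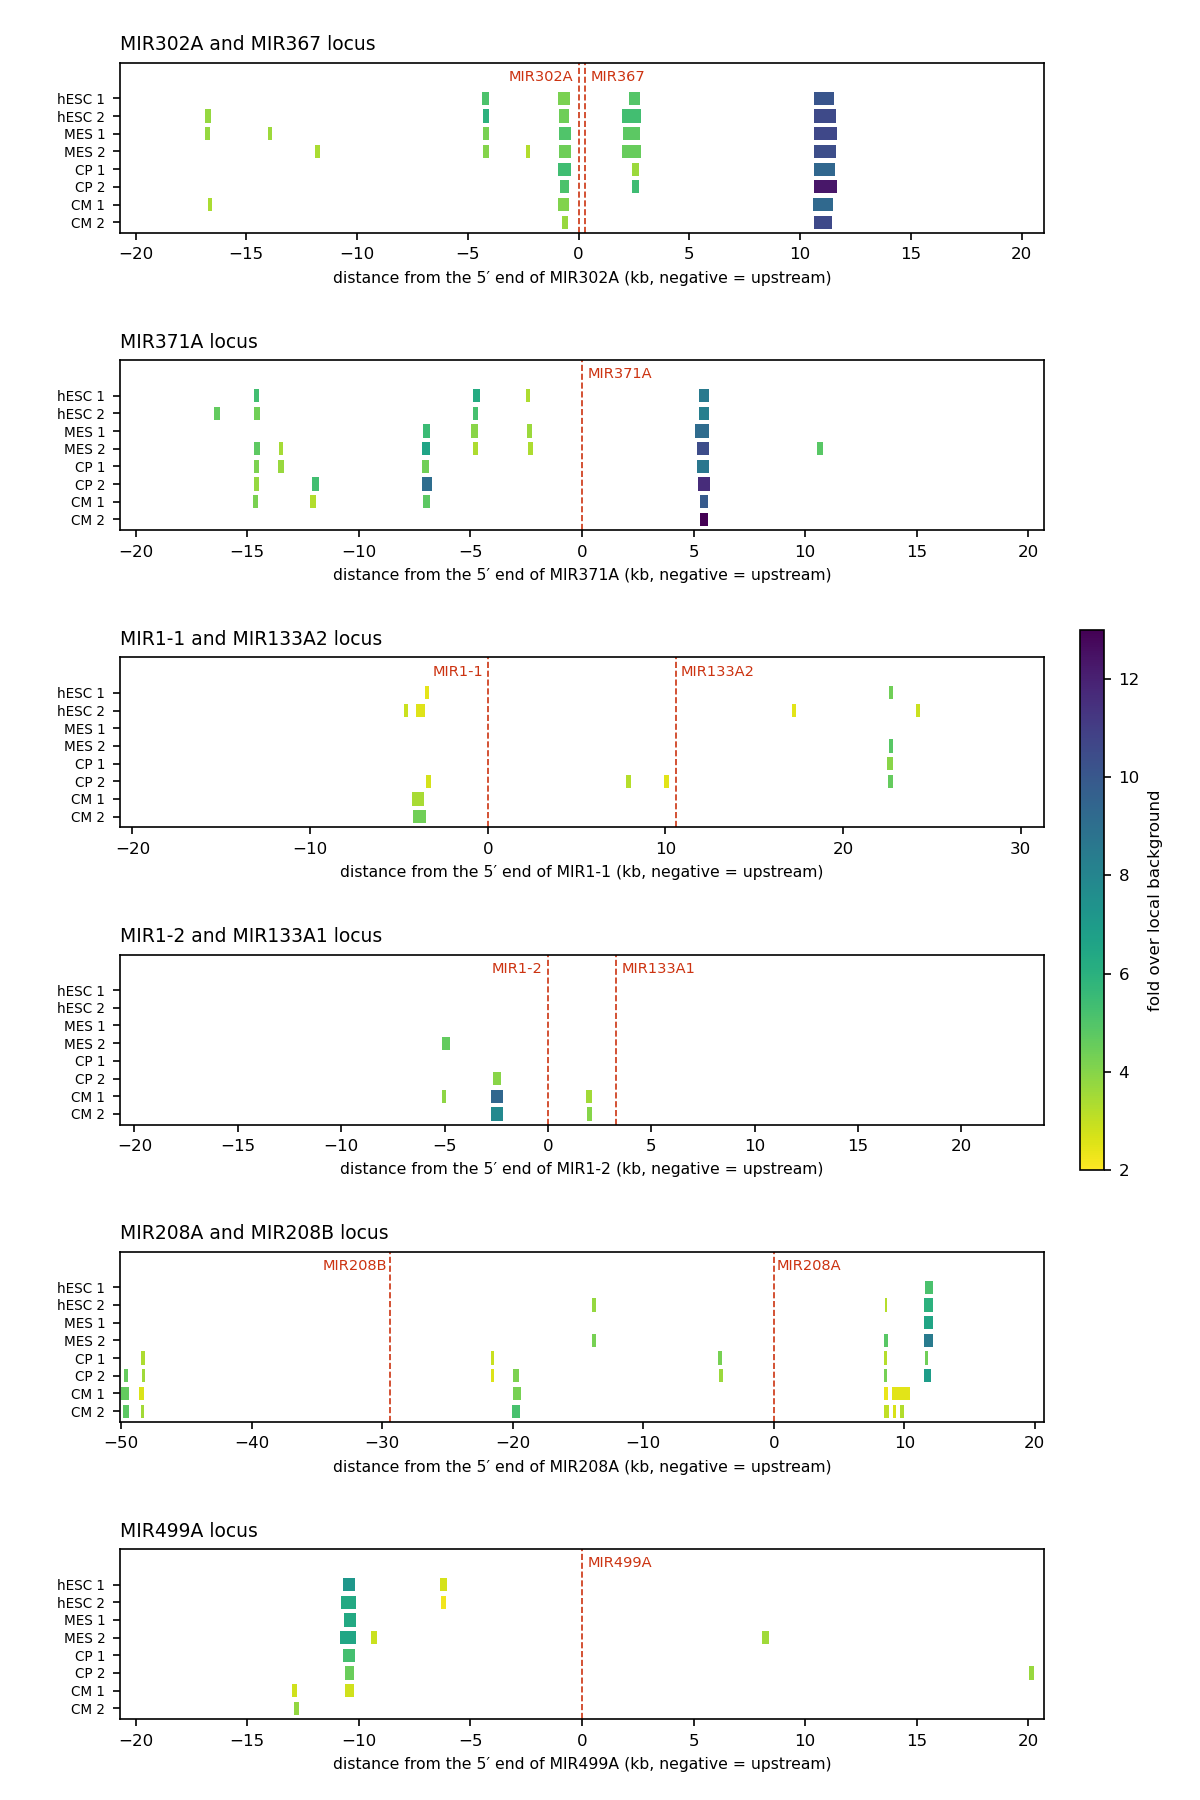
Peaks of the 8 libraries around the 6 microRNA loci, plotted against distance from the 5′ end of the first-named gene in kb, with negative values upstream. Each bar is 1 peak, its colour is the fold over local background, and dashed lines mark the 5′ ends of the microRNA genes. No bar crosses a hairpin, and the MIR1-2 and MIR133A1 locus holds peaks in 1 MES, 1 CP and both CM libraries alone.

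The lists held 55777 peaks on the autosomes and X in the shortest, CM replicate 2, and 156179 in the longest, MES replicate 2, and they covered 18.6% to 53.1% of the 285853 regions. They give no read counts, so the depth of each library is unknown. The promoters of 8 of 8 stem cell markers had a peak in both hESC libraries, against 5 of 8 in both CM libraries, and NANOG had one in the hESC and MES libraries alone. Of 8 cardiomyocyte markers, 5 had a promoter peak in both hESC libraries and 7 in both CM libraries. PLN, which regulates calcium uptake in cardiomyocytes, had one in the CM libraries alone, with fold 6.82 and 5.65. Some markers went the other way. RYR2 had a highest promoter fold of 15.7 and 17.4 in hESC and 7.42 and 6.78 in CM. SOX2 had 4.42 and 4.90 in hESC and 6.01 and 6.19 in CM. By the exact permutation test of stage order below, 5 of 21 cardiomyocyte marker regions fell and 3 rose at an unadjusted p under 0.05. Of 18 stem cell marker regions 4 fell and 3 rose, against 10.2% and 1.68% of all regions. For other cell types, 3 of 3 neural and 4 of 4 smooth muscle and stroma markers had a promoter peak in both libraries at every stage. Endothelium and blood markers had one at 2 of 4 genes in hESC and MES, 0 in CP and 1 in CM, CDH5 being without a peak in any library, and endoderm markers at 3 of 3 genes up to CP and 1 in CM. Skeletal muscle markers, which share the muscle microRNAs, had one at 2, 3, 1 and 1 of 3 genes in hESC, MES, CP and CM, and MYOD1 had a peak in all 8 libraries. The part of other cells in the peaks below was not tested.

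Across libraries, regions at the stem cell genes were listed most often in the first stages and regions at the muscle genes in the last. Of the 17 stem cell regions, 8 and 9 had a peak in the hESC libraries, 10 and 13 in the MES libraries, 7 each at CP, and 7 and 3 at CM. Of the 25 muscle regions, 5 and 9 had a peak in the hESC libraries, 2 and 8 at MES, 7 and 14 at CP, and 11 and 9 at CM. At the muscle genes replicate 2 had more peaks than replicate 1 in hESC, MES and CP, as it had over all regions. A peak in both libraries of a stage was found for 7, 8, 6 and 3 of the 17 stem cell regions in hESC, MES, CP and CM, or 41.2%, 47.1%, 35.3% and 17.6%. For the 25 muscle regions the counts were 4, 2, 7 and 9, or 16%, 8%, 28% and 36%. Over all regions the shares were 29.6%, 31.4%, 23.9% and 14.8%, so the muscle regions went against the shorter lists of CM while the stem cell regions went with them.

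**Figure D2:**
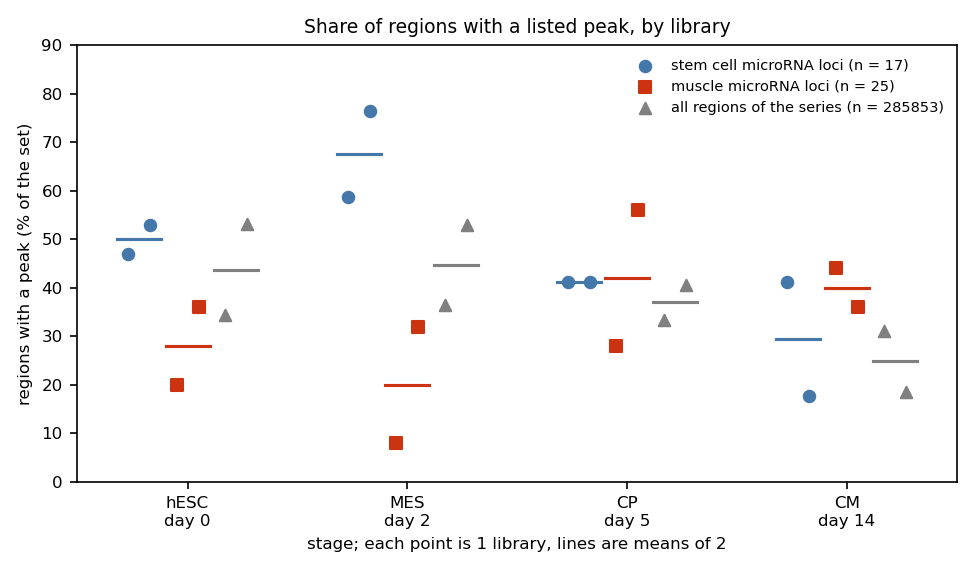
Percent of regions with a listed peak (y axis) by stage (x axis), for the 17 stem cell regions, the 25 muscle regions and all 285853 regions. Each point is 1 library and each line the mean of 2, and in CM both muscle points, with 11 and 9 of 25 regions, are above the points of all regions.

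A region was called lost when both hESC libraries and neither CM library had a peak, and gained in the opposite case. Over all regions 13.5% were lost and 3.15% gained. Of the 17 stem cell regions 3 were lost and 0 gained, and of the 25 muscle regions 2 were lost and 7 gained. The lost stem cell regions are close in share to the background, and 7 of 25 gained muscle regions are above it. The gained regions were 2 at MIR1-2 and MIR133A1, 4 at MIR208A and MIR208B and 1 at MIR499A, with 0 at MIR1-1 and MIR133A2.

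The order of the stages was tested for every region of the series by an exact permutation of the correlation of log2 fold with stage, two-sided over 2520 assignments, with libraries without a peak set to the lowest fold of any list, 1.64. The smallest p the design allows is 0.000794. After Benjamini-Hochberg adjustment over all regions, 0 of 42 member regions and 0.0% of all regions passed 0.05. Libraries without a peak are tied at 1.64, so a region with many of them cannot reach that smallest p. With peaks in both CM libraries alone, the exact permutation p was 0.0714 at each such member region, whatever its fold. Peaks in CP replicate 2 and both CM libraries alone gave 0.0238, and peaks in all hESC and MES libraries alone gave 0.00476. Such p-values mainly reflect which libraries had a peak. The smallest adjusted p of a member was 0.200. At an unadjusted p under 0.05, 5 member regions fell with stage, 3 of them stem cell regions, against 10.2% of all regions, and 4 rose, all at muscle genes, against 1.68%. limma, fitted to the same values, called 2 stem cell regions falling, against 3.22% of all regions, and 1 muscle region rising, against 0.462%. The falling regions had a peak in 4 libraries each and the rising one in 3. Their other libraries were set to 1.64, which has no spread. limma was not fitted with another value for missing peaks, so its slopes depend on this one. The series design calls the replicates biological, but no source used here says whether the ATAC-seq libraries of a stage came from separate differentiations, so p-values measure only the spread between these libraries, which may be technical.

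**Figure D3:**
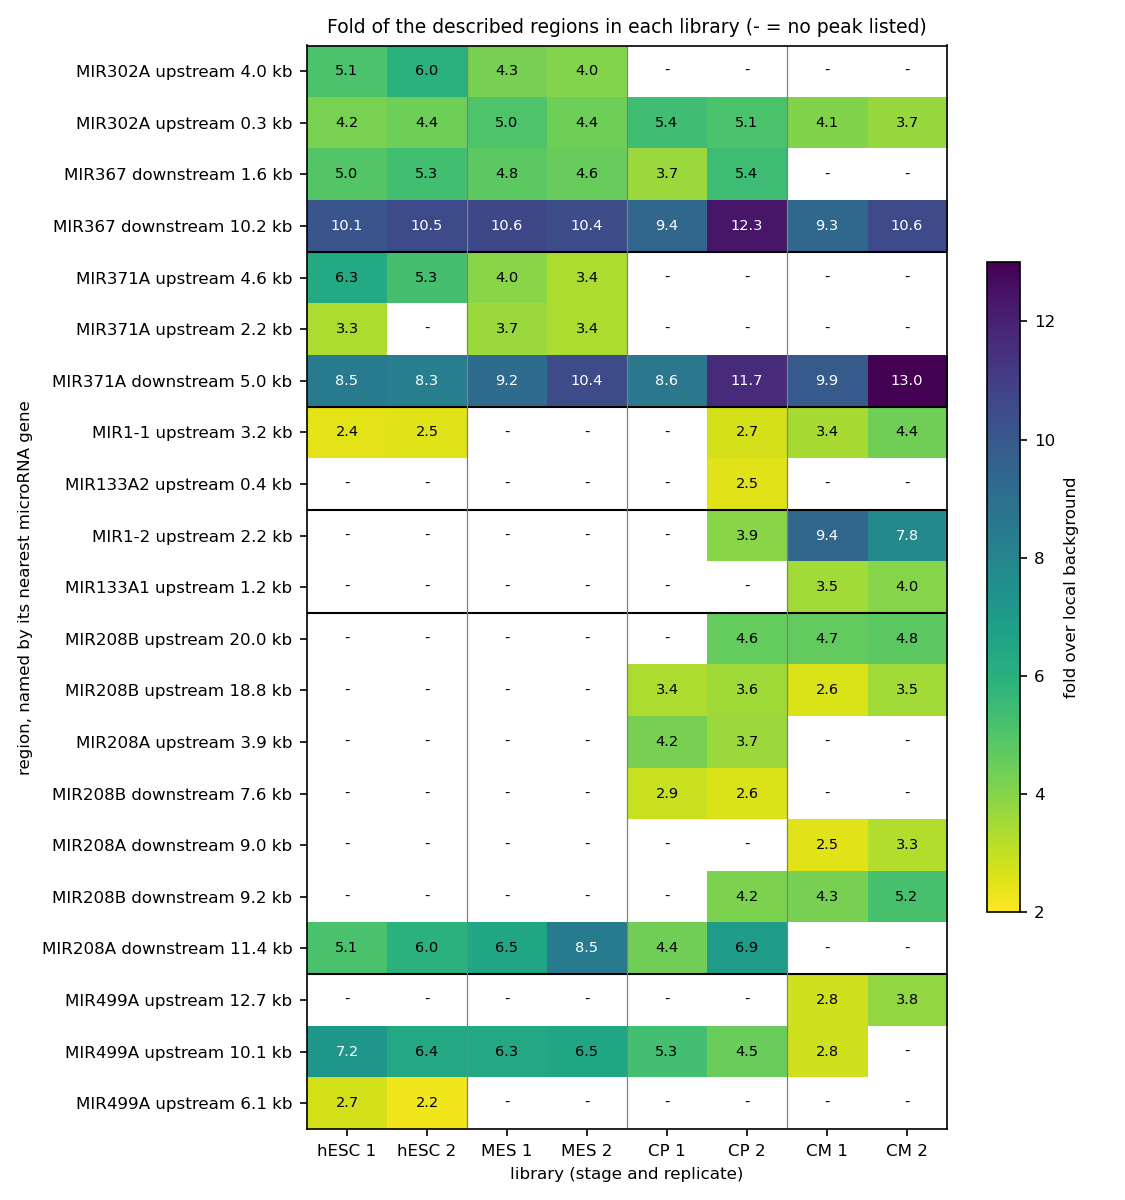
Fold over local background (colour and number) of the 21 regions named by rule, in rows by locus, for the 8 libraries in columns. Lost regions such as MIR371A upstream 4.6 kb are filled on the left, and gained regions such as MIR1-2 upstream 2.2 kb on the right.

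MIR367 (chr4:112647874-112647941) and MIR302A (chr4:112648183-112648251) lie on the minus strand in MIR302CHG, the host RNA of the cluster, and opposite LARP7, which encodes a protein that binds the 7SK RNA. The region 4.0 kb upstream of MIR302A (chr4:112652277-112652608) was listed in the first 2 stages only. Its fold was 5.12 and 5.95 in the hESC libraries (5.54 ± 0.59, SD, n = 2) and 4.27 and 4.05 in the MES libraries (4.16 ± 0.159, SD, n = 2), and no peak was listed in any CP or CM library. The hESC values were above the MES values without overlap. Its −log10 q was 23.3 and 28.9 in hESC and 15.1 and 15.4 in MES, well inside the threshold. The trend had an exact permutation p of 0.00476 and an adjusted p of 0.200. limma gave a slope of -0.66 log2 per stage with an adjusted p of 0.0268. With ranks, days, a replicate block or another value for missing peaks, the adjusted exact permutation p was 0.172 to 0.363. The region overlaps an exon and holds an annotated start of a LARP7 transcript, beside its place upstream of MIR302A. The 200 bases around its summit (chr4:112652335-112652534, plus strand) are shown because this site was listed in the first 2 stages only, and none of the words searched, listed further on, occurs in them.
MIR302A upstream 4.0 kb: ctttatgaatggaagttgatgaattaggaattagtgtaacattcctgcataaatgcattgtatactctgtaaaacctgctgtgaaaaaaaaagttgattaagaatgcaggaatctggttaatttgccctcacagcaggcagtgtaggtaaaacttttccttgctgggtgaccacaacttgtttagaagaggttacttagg

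The transcript starts of the host gene next to MIR302A gave other values. The region 326 bp upstream of MIR302A (chr4:112648577-112649167), which holds the starts of 4 of the 5 annotated MIR302CHG transcripts and one of LARP7, had a peak in all 8 libraries. The outermost start of MIR302CHG, at 112650051, lies outside it. Its fold was 4.23 and 4.42 in hESC (4.32 ± 0.131, SD, n = 2), 5.01 and 4.44 at MES (4.73 ± 0.406, SD, n = 2), 5.35 and 5.14 at CP (5.24 ± 0.155, SD, n = 2) and 4.07 and 3.68 at CM (3.88 ± 0.275, SD, n = 2). CP was the highest and CM the lowest stage, both CM values lying below all others, and the trend had an exact permutation p of 0.613. The −log10 q was 14.4 to 27.8 in the first 3 stages and 8.34 and 3.59 in CM. A peak at these transcript starts was thus still listed at day 14, while the site 4.0 kb upstream was not listed from CP on.

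Downstream of the cluster, a region 1.6 kb from MIR367 (chr4:112645444-112646293, over coding and untranslated exons and a start site of LARP7) was lost as well. It had fold 4.96 and 5.31 in hESC, 4.79 and 4.56 at MES, and 3.66 and 5.41 at CP, with no peak at CM. The first 3 stages overlapped, with means of 5.14 ± 0.245, 4.67 ± 0.167 and 4.54 ± 1.24 (SD, n = 2), and the exact permutation p was 0.0151 with an adjusted p of 0.298. The strongest region of the locus lay 10.2 kb downstream (chr4:112636603-112637651), at the divergent promoters of LARP7 and ZGRF1. Its fold was 10.1 and 10.5 in hESC, 10.6 and 10.4 at MES, 9.39 and 12.3 at CP, and 9.30 and 10.6 at CM, so that the stages overlapped, and it ranked above 94.2% to 96.5% of the peaks of each library. A promoter within the same window thus kept its rank at all stages.

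MIR371A (chr19:53787675-53787741) lies on the plus strand in the unnamed non-coding gene ENSG00000269564, with MIR371B opposite it, and is the first gene of a cluster with MIR372 and MIR373. The intergenic region 4.6 kb upstream (chr19:53782717-53783111) had the same pattern as the distal site of MIR302A. Fold was 6.26 and 5.26 in hESC (5.76 ± 0.708, SD, n = 2) and 3.97 and 3.37 in MES (3.67 ± 0.425, SD, n = 2), and no CP or CM library had a peak. The hESC values lay above the MES values. The exact permutation p was 0.00476 and the adjusted p 0.200. By limma the slope was -0.66 log2 per stage with an adjusted p of 0.0261. Ranks, days, a replicate block or another value for missing peaks gave an adjusted exact permutation p of 0.172 to 0.363. The region nearest to the hairpin, 2.2 kb upstream (chr19:53785157-53785462), was listed in hESC replicate 1 with fold 3.34 and in MES with 3.67 and 3.37, and in no later library. Its exact permutation p was 0.190, since hESC replicate 2, the library with the second longest list, had no peak there.

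A further upstream region of MIR371A, 6.7 kb away (chr19:53780506-53780958), was chosen after its values were seen, because it was listed from MES on. It had no peak in either hESC library, fold 5.51 and 6.59 in MES (6.05 ± 0.761, SD, n = 2), 4.40 and 9.11 in CP (6.75 ± 3.33, SD, n = 2) and 4.75 in CM replicate 1, with none in CM replicate 2. The CP libraries differed by more than the stages did, and the exact permutation p was 0.481. The windows of both regions are given so that the neighbours can be compared. Capitals mark GATA words in both, with a further NKX word, TGAAGTG, in the second. Both come from the plus strand, chr19:53782850-53783049 for the first and chr19:53780579-53780778 for the second.
MIR371A upstream 4.6 kb: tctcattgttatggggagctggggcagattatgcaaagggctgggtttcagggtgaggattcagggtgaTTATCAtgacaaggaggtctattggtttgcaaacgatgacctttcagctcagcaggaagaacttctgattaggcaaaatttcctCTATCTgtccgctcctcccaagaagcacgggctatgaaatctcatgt
MIR371A upstream 6.7 kb: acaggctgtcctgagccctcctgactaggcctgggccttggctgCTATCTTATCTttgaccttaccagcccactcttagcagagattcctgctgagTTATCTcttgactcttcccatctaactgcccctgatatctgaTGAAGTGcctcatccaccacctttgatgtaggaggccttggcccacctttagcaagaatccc

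On the other side of MIR371A, the intergenic region 5.0 kb downstream (chr19:53792749-53793394) held the highest single fold of the 42 regions, 13.02 in CM replicate 2, although the LARP7 and ZGRF1 promoters had the higher fold in 5 of 8 libraries. Fold was 8.53 and 8.28 in hESC (8.41 ± 0.177, SD, n = 2), 9.15 and 10.4 in MES (9.79 ± 0.907), 8.64 and 11.7 for CP (10.2 ± 2.14) and 9.90 and 13.02 at CM (11.5 ± 2.21, SD, n = 2). The CM mean was the highest and both CM values exceeded both hESC values, with an exact permutation p of 0.0651 and an adjusted p of 0.384. Relative to its own list it ranked above 88.6% and 89.3% of peaks in hESC and 97.2% and 99.4% in CM. The window around its summit (chr19:53793044-53793243, plus strand) holds AGATGGC, a core of the sites bound by the insulator protein CTCF, in capitals. This word, searched together with AGGTGGC on both strands, was added after the windows had been seen, and it occurs in 10.8% of all regions and in 13.5% of the 28115 regions with a peak in all libraries. Among the 42 regions it occurs in 2, or 4.76%, with 1 at the stem cell and 1 at the muscle genes.
MIR371A downstream 5.0 kb: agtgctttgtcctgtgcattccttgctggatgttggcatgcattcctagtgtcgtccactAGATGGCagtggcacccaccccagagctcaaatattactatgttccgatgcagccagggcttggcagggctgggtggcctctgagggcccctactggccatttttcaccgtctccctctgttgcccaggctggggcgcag

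MIR1-2 (chr18:21829004-21829088) and MIR133A1 (chr18:21825698-21825785) lie on the minus strand in their host gene MIR133A1HG, opposite MIB1, a ubiquitin ligase of the Notch pathway. The region at the start of MIR133A1HG, 2.2 kb upstream of MIR1-2 (chr18:21831264-21831844), was the strongest gained region of the muscle loci. No hESC or MES library had a peak, CP replicate 2 had fold 3.95, and the CM libraries had 9.39 and 7.82 (8.61 ± 1.11, SD, n = 2). Both CM values stand far above the only other value, and they exceed 96.2% and 82.6% of the peaks of their libraries. The −log10 q was 5.08 in CP replicate 2 and 50.2 and 25.0 in CM. The exact permutation p was 0.0238 with an adjusted p of 0.298. limma gave a slope of 0.78 log2 per stage and an adjusted p of 0.0398. With ranks, days, a replicate block or another value for missing peaks, the adjusted exact permutation p was 0.211 to 0.421. The second gained region lies between the hairpins, 1.2 kb upstream of MIR133A1 (chr18:21826970-21827222) in an exon of MIR133A1HG, and had peaks in CM alone, with fold 3.52 and 3.98 (3.75 ± 0.323, SD, n = 2) and an exact permutation p of 0.0714. The third region of the locus, 4.7 kb upstream of MIR1-2, had fold 4.66 in MES replicate 2 and 3.86 in CM replicate 1. Windows of the 2 gained regions, chr18:21831417-21831616 and chr18:21826968-21827167 on the plus strand, are shown because they had peaks in both CM libraries and in no hESC or MES library. Capitals mark an E-box CAGCTG in the first, and an NKX word, TCAAGTG, and a GATA word, TGATAA, in the second.
MIR1-2 upstream 2.2 kb: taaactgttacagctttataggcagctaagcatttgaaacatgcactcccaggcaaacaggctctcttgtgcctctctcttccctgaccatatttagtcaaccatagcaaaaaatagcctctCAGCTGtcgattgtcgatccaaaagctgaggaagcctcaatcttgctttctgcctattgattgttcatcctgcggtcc
MIR133A1 upstream 1.2 kb: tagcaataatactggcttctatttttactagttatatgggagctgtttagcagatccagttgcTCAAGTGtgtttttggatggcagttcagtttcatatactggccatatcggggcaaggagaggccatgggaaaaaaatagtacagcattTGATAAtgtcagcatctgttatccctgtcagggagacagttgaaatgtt

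The second copy of the pair, MIR1-1 (chr20:62554306-62554376) and MIR133A2 (chr20:62564912-62565013), lies on the plus strand in MIR1-1HG and gave a weaker pattern although it makes the same miR-1-3p and miR-133a. The region at the start of MIR1-1HG, 3.2 kb upstream of MIR1-1 (chr20:62550059-62551109), had fold 2.44 and 2.54 in hESC (2.49 ± 0.0698, SD, n = 2), no peak in MES, 2.72 in CP replicate 2, and 3.43 and 4.40 in CM (3.91 ± 0.682, SD, n = 2). Both CM values lay above all others, but the hESC peaks kept the region from counting as gained, and the exact permutation p was 0.188. The merged region is made of peaks at different places. In CM the peaks had their summits at 62550283 and 62550377 and in hESC replicate 2 at 62550437, while those of hESC replicate 1 and CP replicate 2 were at 62550870 and 62551023. The −log10 q was 18.7 and 14.7 in CM, against 3.11 to 6.41 elsewhere. Next to MIR133A2, 390 bp upstream (chr20:62564219-62564522), a single peak was listed, in CP replicate 2 with fold 2.51, a −log10 q of 3.39 and a rank above 0.405% of the peaks of that library. The window at the CM summit of the MIR1-1HG start (chr20:62550183-62550382, plus strand) is given for comparison with the start of MIR133A1HG, and it too holds an E-box CAGCTG.
MIR1-1 upstream 3.2 kb: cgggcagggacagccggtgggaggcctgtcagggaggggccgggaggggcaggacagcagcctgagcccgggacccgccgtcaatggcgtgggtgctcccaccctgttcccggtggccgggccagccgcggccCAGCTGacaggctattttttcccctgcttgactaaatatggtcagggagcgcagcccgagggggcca

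**Figure D4:**
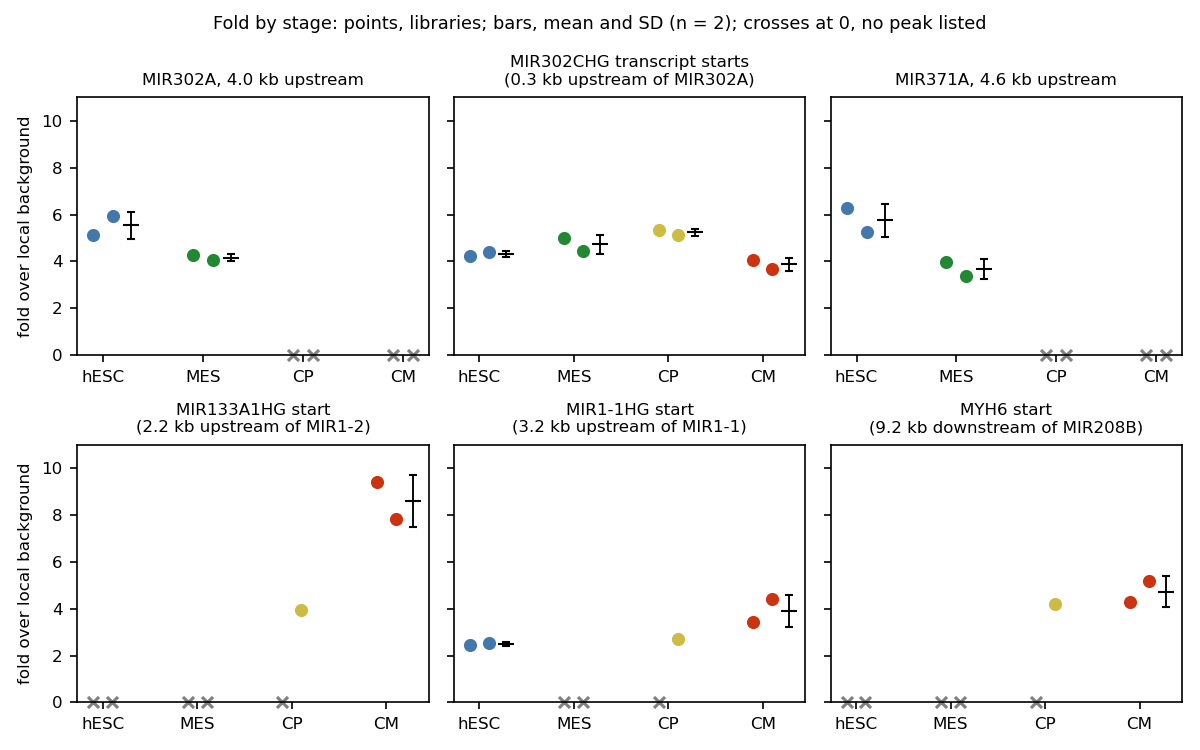
Fold over local background (y axis) by stage (x axis) at 6 regions of the text. Points are libraries, bars are the mean and SD of 2 libraries with a peak, and crosses at 0 mark libraries without one. The distal sites of MIR302A and MIR371A have points in hESC and MES only, the region with MIR302CHG transcript starts has points at every stage, and the starts of MIR133A1HG and MYH6 have points in CP replicate 2 and CM only.

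MIR208A (chr14:23388596-23388666) and MIR208B (chr14:23417987-23418063) lie on the minus strand in introns of MYH6 and MYH7, which encode the alpha and beta myosin heavy chains of heart. Their joint windows span both genes and held 4 of the 7 gained regions. The region at the start of MYH6, 9.2 kb downstream of MIR208B (chr14:23408075-23408740), had no peak in hESC, MES or CP replicate 1, fold 4.18 in CP replicate 2, and 4.28 and 5.19 in CM (4.73 ± 0.645, SD, n = 2). The CP value lay just below the CM values, and the exact permutation p was 0.0238 with an adjusted p of 0.298. MYH6 is the host of MIR208A, whose hairpin is farther from this start than that of MIR208B is.

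Upstream of MYH7, the host of MIR208B, 2 regions had peaks from CP on. The nearer, 18.8 kb upstream of MIR208B and 1419 bp from the MYH7 start (chr14:23436880-23437279), had fold 3.37 and 3.58 in CP (3.48 ± 0.148, SD, n = 2) and 2.63 and 3.51 in CM (3.07 ± 0.626, SD, n = 2), so that CP and CM overlapped. The farther (chr14:23438053-23438660), 2696 bp from the MYH7 start, had 4.59 in CP replicate 2 and 4.66 and 4.76 in CM (4.71 ± 0.071, SD, n = 2). Each had an exact permutation p of 0.0238 and an adjusted p of 0.298, and neither had a peak in hESC or MES. On percentile ranks of fold the exact permutation p was 0.176 for the nearer region and 0.0238 for the farther. The nearer region exceeded only 2.49% and 5.99% of the peaks of the CM libraries, against 13.7% and 11.1% in CP. The annotated 5′ end of MYH7 was in no region. The farther region is the last one inside the 20 kb window, 19990 bp from MIR208B, before a region 19897 bp from MIR499A with fold 3.69 in CP replicate 2 alone. The nearest regions outside the window lay 20949 bp from MIR371A, with peaks in 6 libraries of fold 3.79 to 5.57, and 21187 bp from MIR499A, with peaks in 5 libraries of fold 3.10 to 5.18. The farther MYH7 region is shown (chr14:23438231-23438430, plus strand) because its window alone of the 42 matched the CArG box as searched. This box, the site of SRF, stands in capitals beside an NKX word, TGAAGTG, with a second NKX word, TCAAGTG, after it.
MYH7 upstream, farther region: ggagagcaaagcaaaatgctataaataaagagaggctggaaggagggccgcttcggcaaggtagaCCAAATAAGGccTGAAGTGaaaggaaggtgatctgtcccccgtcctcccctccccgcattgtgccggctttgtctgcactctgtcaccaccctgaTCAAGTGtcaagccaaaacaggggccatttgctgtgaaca

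Of the other regions of the locus, 2 were listed in CP alone. The first, in a coding exon of MYH6, 3.9 kb upstream of MIR208A (chr14:23392600-23392926), had fold 4.25 and 3.66 (3.95 ± 0.416, SD, n = 2), and the second, 7.6 kb downstream of MIR208B, between the genes (chr14:23410143-23410343), had 2.93 and 2.57 (2.75 ± 0.26, SD, n = 2). These 2 were the regions nearest to the hairpins of MIR208A and MIR208B, and both had an exact permutation p of 0.571, the test being one of a steady order. At CMTM5, a neighbour downstream of MYH6, both directions occurred within a short stretch. The CMTM5 start, 11.4 kb downstream of MIR208A (chr14:23376456-23377159), was lost, with fold 5.15 and 5.99 in hESC, 6.51 and 8.45 at MES, 4.38 and 6.94 at CP and no peak at CM, and had an exact permutation p of 0.0357 and an adjusted p of 0.371. Over its exons, 9.0 kb from MIR208A (chr14:23378207-23379639), low peaks appeared in CM with fold 2.50 and 3.28. CM replicate 1 had 1 broad peak there and CM replicate 2 had 2 narrow ones, and the values exceeded only 1.35% and 3.16% of the peaks of their libraries.

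MIR499A (chr20:34990376-34990497) lies on the plus strand in an intron of MYH7B, a slow myosin heavy chain gene, opposite MIR499B. Regions at different annotated starts of MYH7B gave opposite patterns. Each holds the start of 1 of 9 MYH7B transcripts, and the outermost start, at 34955810, is in neither. The one 12.7 kb upstream of MIR499A (chr20:34977401-34977678) was gained, with peaks in CM alone of fold 2.81 and 3.8 (3.31 ± 0.695, SD, n = 2). Its exact permutation p was 0.0714, and its values exceeded only 5.14% and 11.9% of the peaks of their libraries. The one 10.1 kb upstream (chr20:34979554-34980267) had fold 7.18 and 6.36 in hESC (6.77 ± 0.58, SD, n = 2), 6.34 and 6.48 at MES (6.41 ± 0.0945), 5.31 and 4.51 at CP (4.91 ± 0.565) and 2.79 in CM replicate 1, with no peak in CM replicate 2. Both CP values lay below all hESC and MES values and the CM value below CP. This was the smallest p of the 42 regions, an exact permutation p of 0.00159 with an adjusted p of 0.200. Nearer to the hairpin, 6.1 kb upstream in an intron of MYH7B (chr20:34984002-34984308), a low region was lost, with fold 2.71 and 2.24 in hESC alone (2.48 ± 0.339, SD, n = 2). It is shown (chr20:34984000-34984199, plus strand) because it held the only OCT4 word of the 42 windows, ATTTGCA, on both strands with shared bases, which are in capitals.
MIR499A upstream 6.1 kb: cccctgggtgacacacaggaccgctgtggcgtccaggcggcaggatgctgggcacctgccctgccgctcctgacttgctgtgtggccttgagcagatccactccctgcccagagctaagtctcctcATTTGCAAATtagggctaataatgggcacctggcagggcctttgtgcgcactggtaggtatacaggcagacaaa

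Of the 21 regions not named by the rule, 12 had a peak in 1 library only, and their fold ranged from 2.37 to 9.11, the highest being that of the region 6.7 kb upstream of MIR371A. Among all 42 regions, 13 were listed in a single library, 5 of them in MES replicate 2, 4 in hESC replicate 2, 3 in CP replicate 2 and 1 in MES replicate 1, and 3 were listed in all 8. The libraries with most single regions also have the longest lists of their stages.

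Short sequence words were searched on both strands in the 200 bp around the summit of each region. A GATA word (AGATAA or AGATAG, or with a first T, TGATAA or TGATAG) occurred in 8 of 17 stem cell regions and 5 of 25 muscle regions, against 27.2% of all regions. The E-box CAGCTG, used by myogenic factors among others, occurred in 1 of 17 and 6 of 25, against 17.6%. The NKX word TNAAGTG occurred in 3 of 17 and 3 of 25, against 10.3%, and the T-box word AGGTGTG in 0 and 1, against 5.61%. The OCT4 word ATTTGCA, the first letters of the octamer, was in 0 stem cell and 1 muscle region, against 3.78%. Other parts of the octamer were not searched. Its last letters, read on the other strand as ATGCAAA, stand in the printed window of MIR371A upstream 4.6 kb. The CArG box was in 0 and 1, against 1.03%, and the MEF2 box in 0 and 0, against 2.65%. The GATA words overlap each other in part. The CArG box was searched as CC, then 6 bases A or T, then GG. The printed windows of the MIR133A1HG and MIR1-1HG starts both hold CCATATTTAG, on opposite strands. It misses the CArG box as searched at its next-to-last base and was not counted. The MEF2 box was searched with G as its only last base, so forms with another last base were not counted. The printed window of the farther MYH7 region, which was gained, holds CTATAAATAA, which misses the MEF2 box as searched at its last base only. The count of 0 for the MEF2 box thus holds for the searched form alone. In the 7 gained regions, matches were the E-box at the start of MIR133A1HG and over CMTM5, NKX words at MIR133A1 and upstream of MYH7, GATA words at MIR133A1, at the MYH6 start and at the gained MYH7B start, and the CArG box upstream of MYH7. These matches describe letters only and do not show a bound factor.

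Other microRNA genes set these values in context, counted over regions within 20 kb and without the regions shared with the 10 genes. Around 15 genes listed as of the same clusters or of stem cells, such as MIR17 and MIR200C, there were 39 regions. Of these 4 were lost and 1 gained, and 5 fell and 2 rose at an unadjusted p under 0.05. The same clusters added little, because all regions of MIR302B, MIR302C, MIR302D, MIR371B and MIR372 were among those shared. So were 9 of 10 regions of MIR373 and, for the next list, all 6 of MIR499B. Around 13 further muscle and heart genes, among them MIR206, MIR133B, MIR143 and MIR145, there were 74 regions, with 8 lost and 4 gained, 4 falling and 5 rising. Around 10 genes of other tissues, such as MIR122 of liver and MIR124-1 of neurons, there were 83 regions, with 15 lost and 0 gained, 16 falling and 3 rising. Over all regions of the series 13.5% were lost and 3.15% gained, and 10.2% fell and 1.68% rose. None of the regions of these lists passed the adjusted exact permutation test. limma called 1, 1 and 3 regions falling and 0 rising in the 3 lists, against 3.22% and 0.462% of all regions. MIR206 and MIR133B, the skeletal muscle relatives of miR-1 and miR-133a, had 6 regions, of which 2 were lost and 0 gained.

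The genes that process microRNAs were listed throughout. All 15 of DROSHA, DGCR8, XPO5, DICER1, TARBP2, AGO1, AGO2, AGO3, AGO4, LIN28A, LIN28B, DDX5, DDX17, TUT4 and TUT7 had a peak within 1 kb of a start site in all 8 libraries. DROSHA, which cuts the hairpin from the primary transcript, had a highest fold of 10.6 to 14.8 over the libraries, and LIN28A, an inhibitor of let-7 maturation and a stem cell gene, 3.63 to 5.48. Of the 33 regions of these promoters, 6 were lost and 0 gained, against 13.5% and 3.15% of all regions. At an unadjusted exact permutation p under 0.05, 2 fell and 2 rose, against 10.2% and 1.68%. After adjustment 0 passed in the exact permutation test or in limma.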

How the data were processed

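ATAC-seq was analysed in 8 libraries, 2 for each of 4 stages of RUES2 differentiation, grouped by the labels. Per the labels and the study's methods, the authors mapped reads to hg38 with BWA-MEM (0.7.13), filtered for primary alignments with a MAPQ over 30, discarded duplicates (Picard), and used MACS2 (2.1.0) on every library on its own, replicates unpooled, at q 0.01, a shift of 100 bp against the read and an extension of 200 bp. Shift and extension centre the signal on the transposase cut. A control and the genome size are not given in the sources used here. The deposited lists give the fold ratio over local background, −log10 p and −log10 q. The display score derived from q was deposited by the authors too and was not used.

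Of the peaks, 892184 on the autosomes and X were used and 846 on other contigs were left out. Overlapping peaks were merged over libraries. No merged region ran past the end of a chromosome of the genome used here, whose build is that of the lists, and microRNA genes and hosts came from GENCODE 44. A library's value in a region is its highest fold. A missing value was set to the lowest listed fold, except in the alternatives with another value for missing peaks and with ranks. The trend test, tested on simulated data, was computed in Python 3.11.15 with numpy 2.4.6, and limma 3.58.1 in R 4.3.3. No pair of replicates held the same values. The lists cannot give counting intervals, and 2 libraries against 2 cannot reach an exact p under 0.333, which is why stage order was tested over all libraries. In each locus, the region nearest to a member, that of highest −log10 q, and each lost, gained or called region were named, 8 at most. The microRNA genes, lists, words and tests were chosen with earlier results of these data known. Alternatives were another value for missing peaks, ranks, days, limma, a stricter q, lists of equal length, other windows, grouping by summits, a replicate block and each library left out.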

Additional observations from a re-analysis of the deposited data

How the results depend on the processing

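No region passed the adjusted exact permutation test under any alternative, and limma called 2 falling and 1 rising region. The 42 regions became 23 with lists of equal length, where 5 of the 7 gained and 4 of the 5 lost regions were still so and the share of gained regions over the series was 9.06% instead of 3.15%. With a window of 10 kb there were 24 regions and 4 gained, and with 50 kb 88 regions, 13 lost and 12 gained. Grouping peaks by summits within 100 bp kept 5 of the 7 gained regions. Leaving out each library in turn gave 37 to 43 regions, 5 to 10 lost and 7 to 10 gained, with 0 called in either direction. The 10 lost regions came without hESC replicate 1, where 33.9% of all regions were lost, and the 10 gained without CM replicate 2, where 12.0% were gained.

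The coefficient of the trend, r, kept its sign at 16 of the 21 named regions. At the LARP7 and ZGRF1 promoters it went from -0.13 to 0.0667 on percentile ranks and to 0.17 without CM replicate 1, and at the region with MIR302CHG transcript starts from -0.21 to 0.18 without CM replicate 2. With days in place of stage order it was -0.0176 for the region next to MIR133A2, -0.0268 for that 3.9 kb upstream of MIR208A and -0.0266 for that 7.6 kb downstream of MIR208B. Leaving out 1 library gave r from -0.44 to 0.17 at the LARP7 and ZGRF1 promoters and from -0.37 to 0.18 at that with MIR302CHG starts. The region next to MIR133A2 has no value without CP replicate 2, its only library. The cause was not tested.

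The correlation of same-numbered deviations was 0.129 for hESC and MES, 0.133 for hESC and CP and 0.192 for MES and CP, but -0.119, 0.000127 and -0.00475 for CM with hESC, MES and CP. Not every pair exceeded 0.1, so the numbers were not taken to pair the libraries, although those of hESC, MES and CP deviated together. A replicate block called 0 falling and 0 rising regions, as without it, and the smallest p it allows is 0.00347. The depth of the libraries is unknown and limits what a missing peak means.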
